A study of Mus musculus with 9 samples.

Results

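Aldehyde dehydrogenases (Aldh), alcohol dehydrogenases (Adh) and aldo-keto reductases (Akr) are the oxidoreductases by which the liver handles alcohols, aldehydes and ketones. They were taken here as every gene whose name on the array begins with one of those family symbols followed by a digit, and whose signal the scanner software called well above background on at least 3 of the 9 arrays. The names matched 61 probes of 42 genes. Of these, 49 probes of 36 genes passed, 18 of 20 Aldh genes, 5 of 6 Adh genes and 13 of 16 Akr genes, among 17637 features tested in all. Adh6a, Akr1c18, Akr1c21, Akr1cl, Aldh18a1 and Aldh3a1 did not pass and have no values here. The levels were measured in total liver RNA of male C57bl/6J mice of 16 weeks of age, after 12 weeks on their diet, with 1 Agilent 1-colour array per liver and 3 livers per group. The chow group received chow food. The HFD group received a high-fat diet with 60 kcal% fat. For the HFD+APS group this diet was mixed with APS, polysaccharides of the plant Astragalus, at 40 g per kg. The study chose the 3 livers of each group with their histology and triglyceride results known, so the arrays are not a random draw from each group.

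Alcohol dehydrogenases oxidise alcohols such as ethanol and retinol to aldehydes or ketones, with NAD as the electron acceptor. Aldehyde dehydrogenases carry the aldehyde on to an acid, and individual family members are tied to acetaldehyde, retinaldehyde, fatty aldehydes, folate and amino acid breakdown. Aldo-keto reductases mostly run the other way, reducing aldehydes, sugars and steroid ketones with NADPH, and in the liver they are known for detoxifying the reactive aldehydes that lipid peroxidation leaves.

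The sequences that follow identify what was measured for the genes on which the comparisons turn. Each is the first 30 of the 60 bases of the probe used, 5′ to 3′, and the positions are those in the array files on the mm9 build. The part of the transcript that each probe covers was not looked up, since no mm9 annotation was used here.
Aldh1b1 (chr4:45816960-45817019): aaatctgatttcagcctgagttcccagtga
Akr1b10 (chr6:34346793-34346852): catgttcaactagaagcagactgtcacagg
Akr1b8 (chr6:34318338-34318397): aacggacatctccttcactaatttgacctg
Aldh1a7 (chr19:20767553-20767612): ttccttgaactatgtaccatgcatgataac
Aldh1a1 (chr19:20717764-20717823): gactagttgtgacttaagctctgtccctca
The longest run of bases that the whole probes of Aldh1a7 and Aldh1a1 shared with another gene's probe in the 3 families was 9 and 8 bases. Probes were compared only with probes and not with the transcript of the other gene. Whether either probe also binds the transcript of its close relative was therefore not tested.

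Aldh1a1 and Aldh1a7 are neighbours on chromosome 19, and they are shown with the bases just before their start sites because in both the 3 HFD arrays lay above all arrays of the other groups. They were chosen after these values were seen. The sequences are the 250 bases upstream of the RefSeq start (GRCm38.p6, 5′ to 3′ along each gene), and the capitals mark the longest run that both share.
Aldh1a1 (chr19:20601718-20601967, plus strand): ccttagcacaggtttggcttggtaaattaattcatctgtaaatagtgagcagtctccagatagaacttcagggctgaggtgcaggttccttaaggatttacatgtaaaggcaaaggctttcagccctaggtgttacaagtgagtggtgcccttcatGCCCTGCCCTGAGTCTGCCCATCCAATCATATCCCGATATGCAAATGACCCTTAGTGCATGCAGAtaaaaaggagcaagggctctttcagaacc
Aldh1a7 (chr19:20727557-20727806, minus strand): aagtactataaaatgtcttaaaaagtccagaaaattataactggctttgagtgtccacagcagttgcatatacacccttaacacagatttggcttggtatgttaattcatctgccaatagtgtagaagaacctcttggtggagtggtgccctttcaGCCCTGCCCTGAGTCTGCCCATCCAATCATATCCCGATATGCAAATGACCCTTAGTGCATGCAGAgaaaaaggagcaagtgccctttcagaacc
The shared run is 65 bases long and spans the bases from 94 to 30 before the start in both genes. RefSeq lists another start for Aldh1a1, whose upstream bases are not shown. Over the 250 bases, 70.4% were identical between the pair in a global alignment, against 49.6% to 56.4% for the other pairings among the promoters of Aldh1a1, Aldh1a7, Aldh1b1, Akr1b7, Akr1b8 and Akr1b10. The run holds CCAAT, letters that occur on either strand in 33.8% of all 32851 promoters of this length and in 17 of the 28 detected genes that have one in the table. The letters TGACNNNGC, the core of the antioxidant response element, were found on either strand in 10.2% of all promoters and in 2 of those 28 genes, Aldh1a2 and Aldh9a1. A gene was counted if any of its listed promoters held the letters, so the shares of promoters and the counts of genes are not directly comparable. These are matches of letters only.

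Values are log2 signals relative to the 75th percentile of the same array, so 0 is that percentile itself, and a difference of 1 is a doubling. A probe's level depends on its own binding, so levels are compared between groups and never between genes. A difference was called when its p-value from limma, fitted to all 9 arrays and adjusted by Benjamini-Hochberg over the 17637 features, was under 0.05. The p-values weigh a difference against the spread between these 3 livers per group, pooled over the 3 groups and moderated across features. The HFD+APS arrays lie on different slides, so that spread also holds any slide difference.

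The 9 arrays correlated at 0.9791 to 0.9924 within groups and at 0.9633 to 0.9843 between groups. The 3 chow arrays lay on 1 slide, the 3 HFD arrays and HFD+APS 1 on another and HFD+APS 2 and 3 on the last. No slide holds chow and another group, so slide and diet cannot be told apart for HFD against chow or HFD+APS against chow. The arrays of the HFD slide had the highest negative-control signal (64.5 to 70.9, against 44.7 to 50.2 elsewhere) and the smallest share of spots above background (50.4% to 54.1%, against 61.5% to 68.4%). The hepatocyte markers, which check the liver label, had a summed linear signal of 1470 to 2060 times the 75th percentile on each array. The array HFD 3 stood apart in neutrophil markers, with a summed level of 47.9 against at most 8.58 on the other 8.

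High-fat feeding was compared with chow to ask how these enzymes differ between the diets, with the slide moving together with the diet. Aldh1b1, a mitochondrial aldehyde dehydrogenase that can oxidise acetaldehyde, rose 2.07-fold, and Akr1b10, a relative of aldose reductase, rose 1.92-fold. No member fell, and of the 12 members with an unadjusted p under 0.05 all were higher on HFD except Adh6-ps1. Among all 17637 features 5539 had such an unadjusted p. These 2 of 36 genes (5.56%) stand beside 4.24% of all features that rose and 6.66% that fell, so the share of members that rose was close to the background. The members differed from the other features more in their position than in their calls. The fitted difference was above 0 for 28 of 36 members (77.8%) against 44.6% of all features, and its median was 0.32 against -0.05. That median was 0.19 under normexp background correction and 0.20 with the mean of all detected probes of a gene. Such means include second probes of Aldh5a1 and Akr1e1 that were above background on 0 HFD arrays. The 3 HFD arrays were all above the 3 chow arrays for 13 members and all below for none, beside 15.8% of features higher and 22.9% lower. No test of the families as groups was made, and the counts describe these 9 arrays.

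**Figure D1:**
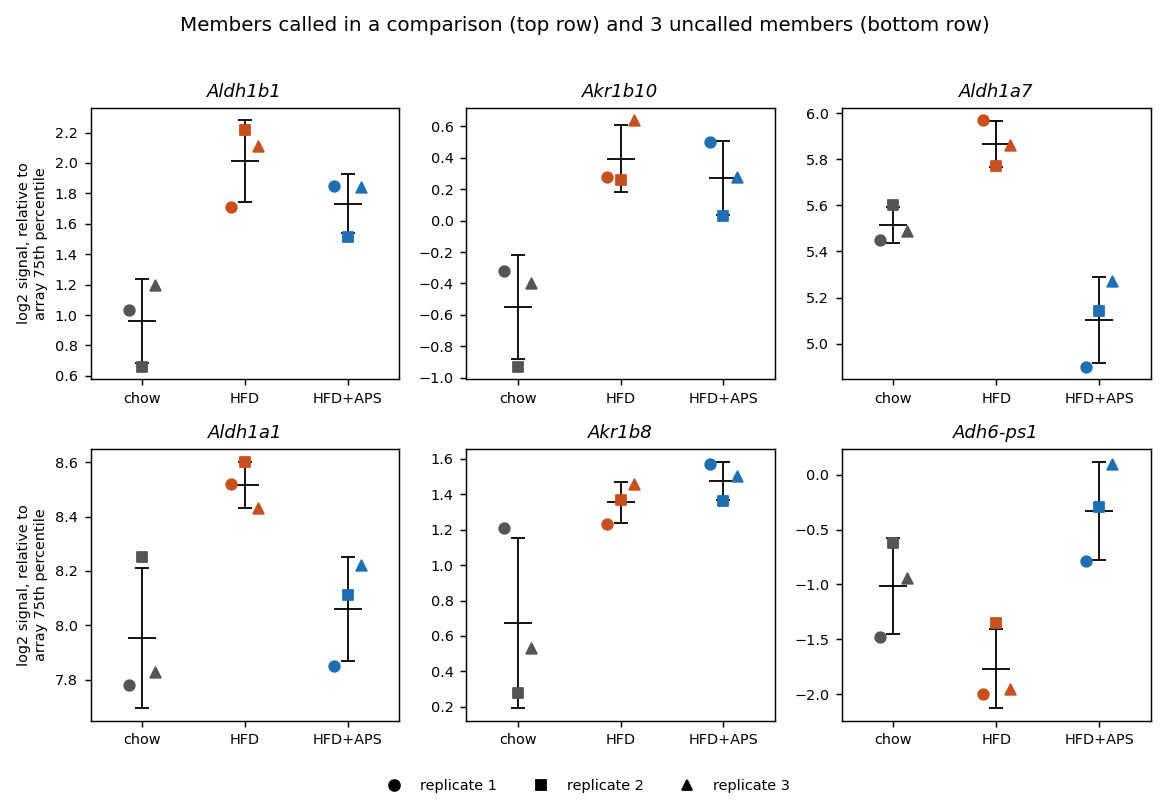
Log2 signal minus that array's 75th percentile (y axis, own scale per gene) in each diet group (x axis) for the 3 members called in a comparison and for 3 that were not called. Each symbol is 1 liver, the long bar is the mean and the whisker the SD of 3 arrays, and the Aldh1a7 panel shows the HFD+APS arrays (4.90 to 5.27) under all the others.

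Aldh1b1 stood at 1.03, 0.66 and 1.20 on chow arrays 1 to 3, at 1.71, 2.22 and 2.11 on the HFD arrays and at 1.85, 1.51 and 1.84 on the HFD+APS arrays. Every array of either high-fat group was above every chow array, and the high-fat groups overlapped. The HFD mean was higher than the chow mean by 1.05 ± 0.19 (SE, n = 3 per group, limma adjusted p = 0.0178). With APS the difference from HFD was -0.28 ± 0.19 (adjusted p = 0.479) and that from chow 0.77 ± 0.19 (adjusted p = 0.0615), neither of them called. The rise on HFD was called under 16 of 19 alternative settings, with adjusted p between 0.00914 and 0.0606. It was not called without chow 2 (adjusted p = 0.0606), without HFD 2 (0.0536) or without HFD 3 (0.054).

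Akr1b10 stood at -0.32, -0.93 and -0.40 on chow, at 0.28, 0.26 and 0.64 on HFD and at 0.50, 0.03 and 0.28 on HFD+APS. Again all 6 high-fat arrays lay above the chow arrays, and HFD and HFD+APS overlapped. The difference between HFD and chow was 0.94 ± 0.20 (SE, limma adjusted p = 0.0287), while HFD+APS differed from HFD by -0.13 ± 0.20 (adjusted p = 0.789). A second, dimmer Akr1b10 probe differed between HFD and chow by 0.36 ± 0.16 in a fit of every probe and was not called (adjusted p = 0.16). The call held under 12 of 19 settings (adjusted p from 0.0186 to 0.0783) and was lost without chow 2 (0.0783), chow 3 (0.062), HFD 1 (0.0512), HFD 2 (0.0598) or HFD 3 (0.0777), with slide as a random block (0.0673) and with no filter on dim probes (0.0584).

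Both genes moved beside markers of several cell types, and the counts of markers called stand beside 4.24% of all features that rose on HFD and 6.66% that fell. The summed level of 9 of 10 hepatocyte markers was 1930 to 2040 on chow, 1470 to 1850 on HFD and 1670 to 2060 on HFD+APS, so that HFD was below chow without overlap. The median difference of that list was -0.37 for HFD against chow, where 1 of its genes fell. The summed level of 12 of 12 Kupffer cell markers was 44 to 73.2 on chow, 78.8 to 117 on HFD and 61.4 to 129 on HFD+APS. None of these genes was called on HFD by limma, while 9 had an unadjusted p under 0.05, beside 5539 of all 17637 features. For 12 of 12 endothelial markers it was 39.3 to 61.8, 72.9 to 87.8 and 79.3 to 91.8, and 3 of these genes rose on HFD. For 8 of 10 markers of monocyte-derived macrophages it was 29.6 to 56.4, 75.3 to 126 and 44.7 to 72.7, and 3 of these rose on HFD. For 14 of 14 stellate cell and fibroblast markers it was 127 to 203, 187 to 215 and 189 to 215, and 2 of these rose on HFD. The 10 lymphocyte markers had a median difference of -0.47, and 1 of them fell on HFD. The chow 2 array, lowest for Aldh1b1 and Akr1b10, was also the lowest for the Kupffer, endothelial, macrophage and stellate lists. It was lowest for the neutrophil and red blood cell lists too, and the lowest chow array for the lymphocyte and adipocyte lists. For the hepatocyte, cholangiocyte and mesothelium lists it was not the lowest chow array. The part of these cells in the result was not tested, and in whole liver a change in the number of cells of a type and a change in RNA per cell cannot be told apart.

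The Akr1b genes lie side by side on chromosome 6 and encode aldose reductase and its relatives. Besides Akr1b10, Akr1b8, a reductase of lipid aldehydes, stood at 1.21, 0.28 and 0.53 on chow, at 1.23, 1.37 and 1.46 on HFD and at 1.57, 1.36 and 1.50 on HFD+APS. Its HFD arrays were above all chow arrays, but chow 1 lay just under the lowest of them. The difference of 0.68 ± 0.22 was not called (limma adjusted p = 0.0788), and without chow 1 it was 0.95 (adjusted p = 0.023, range over settings 0.023 to 0.207). Aldose reductase itself, Akr1b3, which turns glucose into sorbitol, differed by 0.43 ± 0.19 (adjusted p = 0.164), with 0.88 to 1.28 on chow and 1.32 to 1.92 on HFD. The fourth gene, Akr1b7, was near background, at -3.19, -2.82 and -2.69 on chow and -3.30, -2.91 and -2.99 on HFD, and these groups overlapped.

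With APS the Akr1b genes also lay above chow, again with no slide shared between the groups. Akr1b7 stood at -2.46, -1.79 and -2.63 on HFD+APS, above all chow and HFD arrays, 0.77 ± 0.24 over HFD (limma adjusted p = 0.152) and 0.61 ± 0.24 over chow (adjusted p = 0.162). Akr1b3 was at 1.49 to 1.81 on HFD+APS. For all 4 genes the 3 HFD+APS arrays lay above the 3 chow arrays, by 0.57 for Akr1b3 to 0.82 for Akr1b10. None of these differences was called, with adjusted p from 0.0623 to 0.162. The comparisons with HFD and with chow share arrays, so they are not independent of each other.

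**Figure D2:**
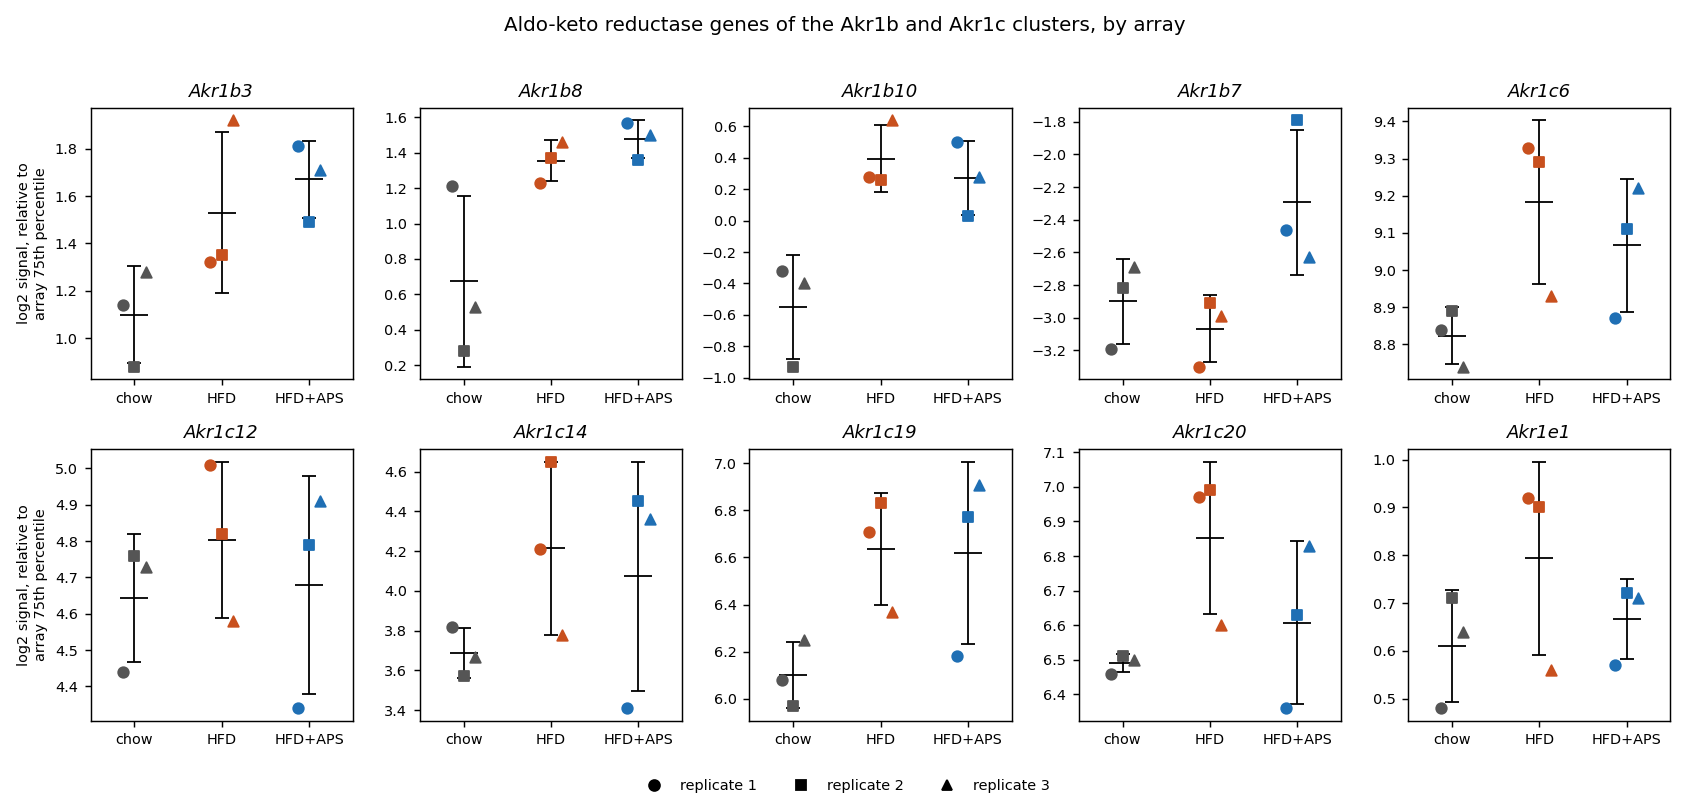
Log2 signal minus that array's 75th percentile (y axis, own scale per gene) by diet group (x axis) for the Akr1b genes of chromosome 6 and the Akr1c and Akr1e1 genes of chromosome 13. Symbols are livers by replicate number, long bars are means and whiskers the SD of 3 arrays, and HFD 3 and HFD+APS 1 sit low in all 6 panels of the chromosome 13 genes.

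The chromosome 13 genes are Akr1e1 and 5 genes of the Akr1c subfamily, which is known largely for work on steroids and related ketones. The difference between HFD and chow was above 0 for all 6, from 0.16 for Akr1c12 to 0.54 for Akr1c19, and none was called. Akr1c6, an oxidoreductase of sex steroids, stood at 8.84, 8.89 and 8.74 on chow, at 9.33, 9.29 and 8.93 on HFD and at 8.87, 9.11 and 9.22 on HFD+APS. HFD was above chow without overlap, by 0.36 ± 0.14 (limma adjusted p = 0.131), and HFD 3 was close to the chow arrays. Akr1c19 stood at 6.08, 5.97 and 6.25 on chow, at 6.71, 6.83 and 6.37 on HFD and at 6.18, 6.77 and 6.91 on HFD+APS. Its HFD arrays were also all above chow (adjusted p = 0.125), but its other detected probe differed by -0.54 ± 0.24 in the opposite direction. Akr1c20, at 6.46, 6.51 and 6.50 on chow, 6.97, 6.99 and 6.60 on HFD and 6.36, 6.63 and 6.83 on HFD+APS, differed by 0.36 ± 0.15 between HFD and chow (adjusted p = 0.151). Its second probe differed by -0.16 ± 0.22, so for both genes the direction depends on the probe. The Akr1c20 probe used was tied to the gene by its symbol only. The array file gives it a cDNA that was not matched to a RefSeq transcript, and it lies apart from the second probe (chr13:4486408-4486467 against chr13:4506828-4506887, mm9). It may therefore measure a neighbouring transcript. With the mean of all detected probes of a gene in place of the brightest, 4 of the 6 differences were above 0. Akr1c14, a hydroxysteroid dehydrogenase, differed by 0.53 ± 0.31 (adjusted p = 0.276), with HFD 3 (3.78) under chow 1 (3.82). The Akr1c12 probe used also matches the transcript of its near copy Akr1c13, so its value may hold both. Akr1e1 differed by 0.18 ± 0.13, and its second probe by -0.23 ± 0.23. That second probe was above background on 3 chow, 0 HFD and 1 HFD+APS array, so its difference is not reliable. It is nevertheless part of the mean of all detected probes.

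None of the other aldo-keto reductases was called. Akr1d1, the steroid reductase of bile acid synthesis, was dim and variable, at -2.13, -2.17 and -2.37 on chow, -1.98, -1.40 and -2.73 on HFD and -2.14, -1.27 and -1.24 on HFD+APS. All groups overlapped, and its difference between HFD and chow was 0.18 ± 0.35. Akr1a1, an aldehyde reductase, and Akr7a5, a reductase of aflatoxin aldehyde, differed by 0.22 and 0.11, with 95% intervals of -0.05 to 0.48 and -0.20 to 0.41. Over the 13 Akr genes 12 differences (92.3%) were above 0, with a median of 0.36 on the log2 scale, beside 44.6% of all features. With the mean of all detected probes, which includes the second Akr1e1 probe, the count was 10 of 13 and the median 0.18.

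Among the aldehyde dehydrogenases that act on retinaldehyde, Aldh1a1 stood at 7.78, 8.25 and 7.83 on chow, at 8.52, 8.60 and 8.43 on HFD and at 7.85, 8.11 and 8.22 on HFD+APS. All 3 HFD arrays exceeded the other 6. HFD was above chow by 0.56 ± 0.16 (limma adjusted p = 0.055), just outside the threshold, and it passed under 4 of 19 settings (adjusted p from 0.0363 to 0.143). Aldh1a2 and Aldh1a3, which make retinoic acid chiefly outside hepatocytes, were near background. Aldh1a2 differed between HFD and chow by -0.39 ± 0.30, with overlap. Aldh1a3 had values of -3.31, -4.37 and -3.38 on chow, -3.19, -3.78 and -2.87 on HFD and -3.01, -3.75 and -3.11 on HFD+APS, with all groups overlapping.

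None of the enzymes of amino acid and folate breakdown was called. Aldh6a1, which serves valine breakdown, stood at 6.40, 6.45 and 6.41 on chow, at 6.62, 6.61 and 6.18 on HFD and at 6.38, 6.75 and 6.74 on HFD+APS. HFD 3 was below all chow arrays and the other 2 HFD arrays above them, so the mean difference was 0.05 ± 0.16. Aldh1l1, the cytosolic formyltetrahydrofolate dehydrogenase, was at 6.88, 6.61 and 6.83 on chow, 6.84, 6.91 and 6.84 on HFD and 6.96, 7.12 and 7.10 on HFD+APS. HFD differed from chow by 0.09 ± 0.11, and HFD+APS was above every other array, 0.20 ± 0.11 over HFD and 0.29 ± 0.11 over chow, neither called. Aldh4a1 (proline breakdown) and Aldh5a1 (succinate semialdehyde) were higher on HFD without overlap, by 0.34 ± 0.15 and 0.35 ± 0.15, not called. A second and dimmer probe of Aldh5a1 differed by -1.43 ± 0.51. It was above background on 3 chow, 0 HFD and 2 HFD+APS arrays, so the size of that difference is not reliable. Aldh7a1, Aldh8a1 and Aldh9a1, which serve lysine breakdown, tryptophan breakdown and carnitine synthesis, differed between HFD and chow by -0.09, -0.08 and -0.12. Their 95% intervals lay between -0.40 and 0.23.

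Aldh2, the main mitochondrial acetaldehyde dehydrogenase, differed between HFD and chow by -0.08, with a 95% interval of -0.59 to 0.43, and the 2 groups overlapped. Its other probe differed by 0.41 ± 0.17, so no direction can be given for it. Aldh3a2, the fatty aldehyde dehydrogenase, differed by 0.33 ± 0.19, Aldh3b1 by 0.30 ± 0.25, the dim Aldh3b2 by 0.36 ± 0.44 and Aldh16a1 by 0.05 ± 0.10, none called. Aldh1l2, the mitochondrial relative of Aldh1l1, was above background on 5 arrays and differed by 0.23 ± 0.22. Over the 18 Aldh genes 13 differences (72.2%) were above 0 and their median was 0.27. The median was 0.11 under normexp, 0.18 without chow 1, 0.16 without chow 2, 0.17 without chow 3 and 0.15 without HFD 3.

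**Figure D3:**
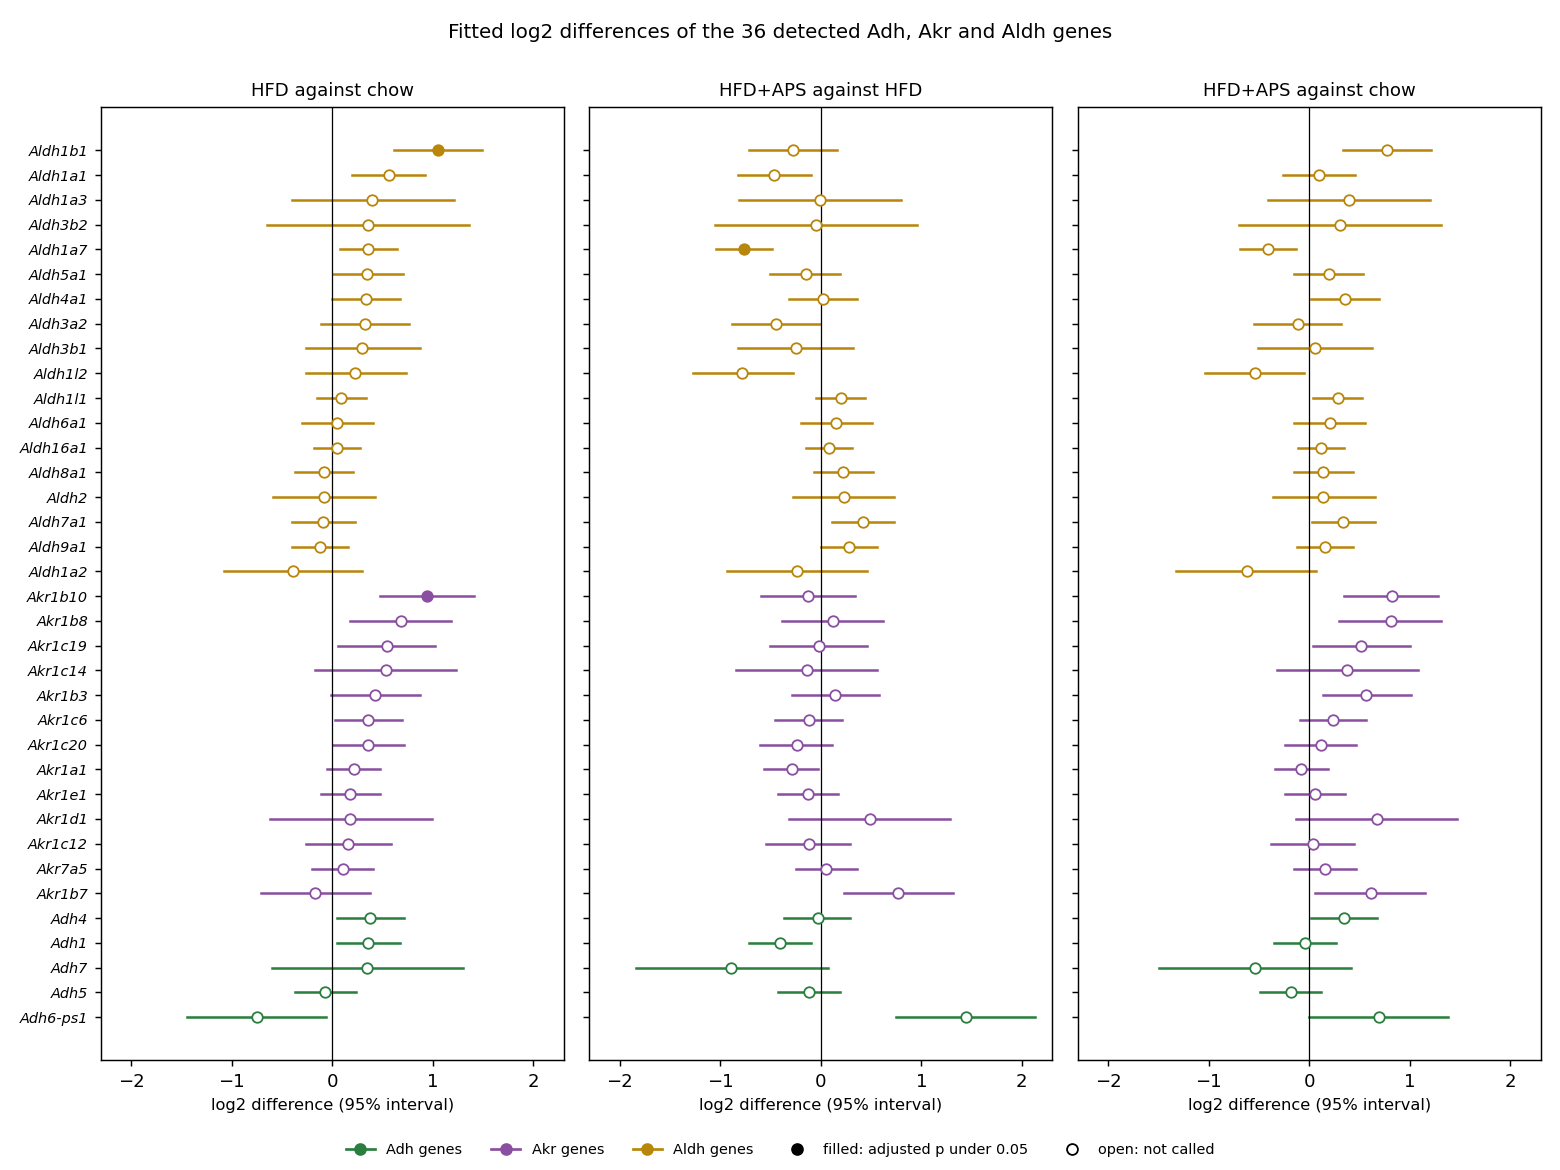
Fitted log2 difference (x axis) with its 95% interval for each of the 36 detected genes (y axis, grouped by family) in the 3 comparisons. Filled points had an adjusted p under 0.05 in limma, which were Aldh1b1 and Akr1b10 for HFD against chow and Aldh1a7 for HFD+APS against HFD.

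The Adh genes form a cluster on chromosome 3, and none of the 5 detected was called in any comparison. Adh1, the main ethanol dehydrogenase of liver, stood at 7.97, 8.07 and 8.18 on chow, at 8.65, 8.40 and 8.25 on HFD and at 7.90, 8.17 and 8.02 on HFD+APS. HFD was above both other groups without overlap, by 0.36 ± 0.13 over chow (limma adjusted p = 0.113) and by 0.40 ± 0.13 over HFD+APS (adjusted p = 0.179). Adh4, which also oxidises retinol, was at 5.88, 6.17 and 6.01 on chow, 6.43, 6.38 and 6.40 on HFD and 6.10, 6.60 and 6.40 on HFD+APS, 0.38 ± 0.14 higher on HFD than on chow (adjusted p = 0.115). Adh5, the glutathione-dependent formaldehyde dehydrogenase, stood at 7.17, 7.02 and 6.89 on chow, 7.12, 6.92 and 6.84 on HFD and 7.03, 6.70 and 6.82 on HFD+APS. All groups of Adh5 overlapped, and HFD against chow was -0.07 with a 95% interval of -0.37 to 0.24. The median of the 5 genes was 0.35 for HFD against chow and -0.01 without HFD 3.

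Adh7, the alcohol dehydrogenase typical of the stomach, was near background at -2.07, -2.75 and -2.73 on chow, -2.94, -2.44 and -1.13 on HFD and -3.03, -3.14 and -2.99 on HFD+APS. The HFD 3 array, the one with the high neutrophil markers, held its highest value, and the part of those cells in it was not tested. The HFD+APS arrays were below all others, by 0.89 ± 0.42 against HFD, which was not called (limma adjusted p = 0.313). Without HFD 3 the difference from HFD was -0.37, and HFD against chow went from 0.35 to -0.17.

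Adh6-ps1, a pseudogene of the cluster that is transcribed, had the largest difference of any member between HFD+APS and HFD. It stood at -1.48, -0.62 and -0.94 on chow, at -2.00, -1.35 and -1.95 on HFD and at -0.79, -0.29 and 0.10 on HFD+APS. All HFD+APS arrays were above all HFD arrays, by 1.44 ± 0.30 (2.72-fold, limma adjusted p = 0.0622), just outside the threshold. On the single slide that holds both groups the difference was 0.98 ± 0.38. There HFD+APS 1 alone stands for its group, and it held the lowest value of that group (-0.79). Under the other settings the limma adjusted p was 0.0355 to 0.173. HFD against chow was -0.75 ± 0.30, with overlap and not called (adjusted p = 0.132).

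The high-fat diet with APS was compared with the high-fat diet alone to ask how these enzymes differ between the groups. The arrays HFD+APS 2 and 3 lay on a slide without HFD arrays, so slide and APS cannot be fully told apart here. A single member passed, Aldh1a7, a close relative of Aldh1a1, which fell by 0.76 ± 0.12 on the log2 scale (SE, n = 3 per group, limma adjusted p = 0.0308), a 1.70-fold lower level. No member rose, and 9 of 36 members had an unadjusted p under 0.05 in either direction, beside 3120 of all 17637 features. Among all features 0.442% rose and 0.947% fell, and 1 of 36 is 2.78%. The difference was above 0 for 14 of 36 members (38.9%) against 50.8% of all features, and its median was -0.08 against 0.01. The groups did not overlap for 5 members that were higher and 7 that were lower with APS, beside 12.8% and 11.5% of features.

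Aldh1a7 stood at 5.45, 5.60 and 5.49 on chow, at 5.97, 5.77 and 5.86 on HFD and at 4.90, 5.14 and 5.27 on HFD+APS. The 3 groups did not overlap at all, with HFD highest and HFD+APS lowest. HFD was 0.36 ± 0.12 above chow (limma adjusted p = 0.0933) and HFD+APS -0.41 ± 0.12 from chow (adjusted p = 0.0952), neither called. On the slide shared by HFD+APS 1 and the HFD arrays the difference from HFD was -0.96 ± 0.15. There HFD+APS 1 alone stands for its group, and it held the lowest value of that group (4.90). The fall was called in 10 of 20 alternative settings (adjusted p from 0.0126 to 0.0974), and its size stayed between -0.66 and -0.96. It was not called without chow 1 (0.0515), chow 3 (0.064), HFD 1 (0.0906), HFD 2 (0.0566), HFD 3 (0.0777), HFD+APS 2 (0.096) or HFD+APS 3 (0.0666). The call was also lost with no filter on dim probes (0.0721), with the replicate number as a block (0.0795) and with only the 2 groups compared (0.0974).

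Its neighbour Aldh1a1 was lower with APS than on HFD without overlap, by 0.46 ± 0.16 (limma adjusted p = 0.183, not called). Within the shared slide, where HFD+APS 1 alone stands for its group, the difference was -0.67 ± 0.20. Aldh1l2, above background on 3 chow, 1 HFD and 1 HFD+APS array, was at -3.47, -3.67 and -4.16 on chow, -3.41, -3.35 and -3.84 on HFD and -4.07, -4.53 and -4.33 on HFD+APS. It lay lower with APS by 0.78 ± 0.22 (adjusted p = 0.125), and by 0.53 ± 0.30 on the shared slide. Its values are close to the lowest signals called above background, which were -3.25 to -3.56 on the HFD slide and -4.20 to -4.58 on the others. Aldh3a2 (-0.44 ± 0.19), Akr1a1 (-0.29 ± 0.12) and Adh1 were also lower in every HFD+APS liver than in any HFD liver, and Aldh7a1 (0.42 ± 0.14) and Aldh9a1 (0.28 ± 0.12) higher in every one. None of these was called.

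The Akr1c genes gave a different reading within the slide. All 6 genes of the chromosome 13 group were between -0.02 and -0.24 for HFD+APS against HFD over all arrays. Within the shared slide, where HFD+APS 1 alone stands for its group, they were between -0.22 and -0.81, the last for Akr1c14, and none was called. Without HFD+APS 1, 3 of the 6 differences were above 0 and their median was 0.01. HFD+APS 1 was the lowest array of its group for 21 of the 30 members above background on all 9 arrays (70%), against 45.6% of such features. HFD 3 was likewise the lowest of its group for 21 of 30, against 47.8% of features. The median within-group SD of the 30 members was 0.207 on HFD and 0.188 on HFD+APS, against 0.146 and 0.155 for the features, and 0.135 against 0.154 on chow. HFD+APS 1 had the lowest sum of the adipocyte list, 56.8 against 202 to 425 elsewhere. That sum rests on 3 of 7 genes, Cfd, Fabp4 and Car3, while Adipoq, Lep, Retn and Plin1 were not among the features tested. Whether the sum reflects fat tissue was not tested, nor was its part in these values.

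**Figure D4:**
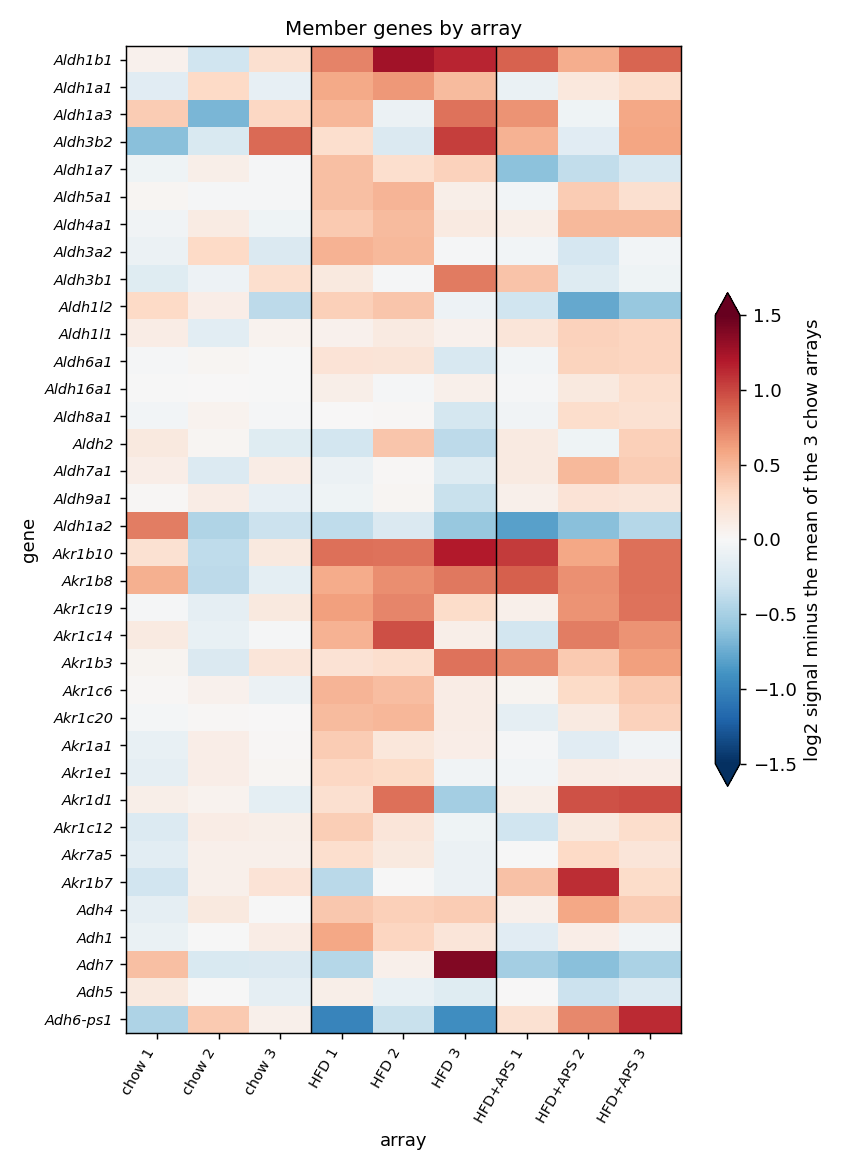
Log2 signal of each of the 36 genes (rows) on each of the 9 arrays (columns) minus that gene's mean over the 3 chow arrays, in colour from -1.5 (blue) to 1.5 (red). The HFD 1 and HFD 2 columns are red for most Akr genes, and HFD 3 and HFD+APS 1 are paler for many of them.

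Setting HFD+APS against chow asked where the treated livers stood relative to normal feeding. These groups share no slide, so the slide moves together with the diet here too. No member was called by limma, beside 0.89% of features that rose and 2.65% that fell. An unadjusted p under 0.05 was found for 12 of 36 members and 4411 of all 17637 features. The difference was above 0 for 28 of 36 members, with a median of 0.18 against -0.04 over all features. Groups did not overlap for 7 members that were higher and 2 that were lower, beside 12.2% and 18.6% of features. The 2 lower members were Aldh1a7 and Adh7. The 7 higher were the 4 Akr1b genes, Aldh1b1, Aldh1l1 and Aldh7a1, the last by 0.34 ± 0.14. Aldh1b1 had the smallest adjusted p, 0.0615. The comparison shares its arrays with the other comparisons, so the side of 0 here is not a separate observation.

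The enzymes around these families moved in part. Of 22 tested genes of retinoid handling, 3 rose on HFD and none fell, beside 4.24% and 6.66% of all features. The 3 genes encode retinol dehydrogenases and were Rdh9 (0.71 ± 0.15), Rdh10 (0.70 ± 0.19) and Rdh5 (0.53 ± 0.14), with limma adjusted p of 0.0258, 0.0489 and 0.0484. Rdh9 was also above chow with APS, by 0.69 ± 0.15 (adjusted p = 0.0457). The list's median was 0.13, and none of its genes was called for HFD+APS against HFD. There 0 had an unadjusted p under 0.05, beside 3120 of all 17637 features.

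Of 22 tested partners in ethanol and carbonyl metabolism, 3 rose on HFD and 1 fell, beside 4.24% and 6.66% of all features, with a list median of 0.21. Dhrs7, a short-chain dehydrogenase, rose by 0.85 ± 0.12, Adhfe1, an iron-containing hydroxyacid-oxoacid transhydrogenase, by 0.67 ± 0.11 and Dhrs1 by 0.64 ± 0.16. Cbr1, carbonyl reductase, fell by 0.63 ± 0.17 (limma adjusted p = 0.0493). Adhfe1 was the 1 gene of the list that rose with APS against chow (0.53 ± 0.11). None of the list's genes was called for HFD+APS against HFD, where 6 had an unadjusted p under 0.05, beside 3120 of all 17637 features.

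Of 20 partners in bile acid and steroid metabolism, 2 fell on HFD, beside 6.66% of all features, and both were higher with APS than on HFD, beside 0.442% of features that rose. Srd5a1, a steroid reductase that supplies substrates to the Akr1c enzymes, fell by 1.08 ± 0.19 on HFD and was higher by 1.29 ± 0.19 with APS (limma adjusted p = 0.0172 and 0.0253). Cyp7b1, an oxysterol hydroxylase, fell by 0.91 ± 0.22 and was higher by 1.41 ± 0.22 (adjusted p = 0.0383 and 0.0302). Both comparisons use the HFD arrays, which by itself ties their signs together. None of 19 genes of NAD and one-carbon metabolism, and none of 17 genes of the amino acid and carnitine pathways that feed the Aldh enzymes, was called in any comparison. Their medians for HFD against chow were 0.15 and 0.18. In that comparison 3 and 8 of these genes had an unadjusted p under 0.05, beside 5539 of all 17637 features.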

How the data were processed

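The authors ran liver RNA of 9 mice on Agilent arrays with Cy3 label. Feature Extraction is version 10.7 per the submitters' processing notes, which also name limma, and 10.7.1.1 in the headers. Per the file headers, the deposited spot intensity had its background subtracted and was detrended, with no normalization between arrays. The table of all samples that the authors deposited holds log2 values, near-equal in distribution (medians 4.98 to 4.99), whose normalization is not given in the sources used here. The scanner's above-background flag was used as deposited.

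Here the 75th percentile of the log2 processed signal was subtracted per array (45018 spots, of which 1639 controls were left out), replicate spots were averaged to 41174 probes, and probes well above background on at least 3 of 9 arrays were kept (26478). The brightest probe stood for a gene, named through RefSeq (GRCm38.p6). All groups entered 1 fit (R 4.3.3, limma 3.58.1, lmFit and eBayes), with Benjamini-Hochberg adjustment over 17637 features. The number of arrays limits the precision. The script was tested on simulated data. Members and lists were chosen with earlier results of these data known.

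Members called in any comparison are given on every array, as are per family the 3 with the highest mean level and the 2 uncalled with the largest difference on HFD and with APS. Others are given by range or difference, except some named after their values were seen (the Akr1b, Akr1c and Aldh1a groups and second probes). Called partner genes are named. Protein sequences were not used here, so the planned protein comparison was replaced by the overlap of probe sequences. Alternatives were normexp (offset 50), quantile normalization, the deposited table, other filters, other probe rules, slide and replicate blocks, 2 groups only, and each array left out.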

Additional observations from a re-analysis of the deposited data

How the results depend on the processing

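The number of members called was small and changed with the settings, while no called difference turned its direction. For HFD against chow, 2 members were called, 1 when dim probes were not filtered and 1 with slide as a random block (correlation 0.11). It was 3 under normexp, 3 with the authors' deposited table and 3 with only probes above background on all 9 arrays, and 0 to 3 when 1 array was left out. For HFD+APS against HFD, 1 was called, 2 under normexp (1 higher, 1 lower) and 2 with only probes above background on all 9 arrays. That count was 0 with no filter, 0 with only the 2 groups compared, and 0 with the replicate number as a block. It was 0 to 2 when 1 array was left out. For HFD+APS against chow, none was called, against 3 under normexp, 2 with probes above background on all 9 arrays, and 0 to 1 when 1 array was left out. The cause of these changes was not tested.

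Same-numbered arrays of different groups did not deviate together (correlations from -0.17 to 0.16), so the replicate numbers do not pair the livers. The replicate block took the adjusted p of Aldh1a7 from 0.0308 to 0.0795 and left the 2 calls on HFD as they were. Of the values of single named members under the alternatives, 1055 kept their side of the threshold, 20 lost a call and 15 gained one. Those that gained one were Aldh1a1, Akr1b8, Adh6-ps1, Akr1b10, Aldh1b1 and Akr1c19, each in 1 or 2 comparisons. Uncalled members turned sign more often, up to 10 of 36 for HFD+APS against HFD within the shared slide. Over all settings the median of the members was 0.19 to 0.32 for HFD against chow and -0.14 to 0.01 for HFD+APS against HFD. Signal over background limits Adh7, Akr1b7, Aldh1a2, Aldh1a3, Aldh1l2 and Aldh3b2, which were above background on 3 to 8 of the 9 arrays.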
